A study of Mus musculus with 6 samples.

Results

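Genes of glycolysis and of the response to low oxygen were examined in RNA from mammary tumors of NeuT/ATTAC mice that did or did not receive DMHCA, an agonist of the nuclear receptor LXR. The group was a list of 42 gene symbols, which the files hold as 43 gene entries of 55385, because Aldoa is listed under 2 gene identifiers. All 43 entries passed the filter on low counts, as did 19427 entries in all. The list covers glucose uptake, the enzymes from hexokinase to pyruvate kinase, the handling of lactate and pyruvate, the oxygen sensing pathway and targets of hypoxia.

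All mice were female and carried a constitutively active rat ErbB2 gene (MMTV-NeuT) together with FAT-ATTAC, an FKBPv-caspase-8 fusion driven by the FABP4 promoter, which acts in fat cells. AP20187, which dimerizes that caspase and so removes part of the mammary fat, was, by the study's description, given to all mice by i.p. injection at 0.4 mg/kg, 3 times per week, from 6 weeks of age. The treated mice also received DMHCA as 0.05% of the diet, about 100 mg/kg, from 8 weeks of age, and the age at which tumors were taken is not given in the labels. The labels give the treatment of the controls as AP20187 Vehicle, which can be read as AP20187 or as its vehicle alone, and name the tissue mammary gland fibrosis, whereas the study describes tumors. The luminal and tumor markers Epcam, Krt8, Krt18, Cdh1, Cldn3 and Erbb2 were high in every sample. TPM is RSEM's transcript abundance, which accounts for gene length and depth. Krt19 varied widely, at 4.73 to 435 TPM in controls and 1.51 to 19.8 TPM with DMHCA. The summed TPM of all 7 markers, Krt19 included, was 3388 to 4498 in controls and 5208 and 5341 with DMHCA. In normalized counts only Krt8 of the 7 was higher with DMHCA than in every control. Mean normalized counts of Epcam, Cdh1 and Krt19 were lower with DMHCA.

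There were 3 control and 3 DMHCA libraries, with 46358654 to 63420620 expected counts each. Libraries Treated 1 and Treated 3 were nearly alike. Their robust coefficient of variation over genes was 0.0242, against 0.264 to 0.372 for the other pairs of one group, and no listed gene differed between them by more than 1.10-fold. They were summed and counted as 1 sample, called DMHCA 1+3, so that 3 control samples were compared with 2 DMHCA samples. Control 3 stood apart in its cell type markers. Summed TPM of 5 B cell markers was 269 there and 1.09 to 31.5 in the other controls, and that of 6 adipocyte markers was 1218 against 133 to 296, while the DMHCA samples had 1.73 to 2.03 and 71.2 to 77.8. The study describes the libraries of each group as tumors of 3 mice, while the labels do not tie a library to an animal.

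Glycolysis splits glucose into pyruvate, and tumor cells often turn that pyruvate into lactate even when oxygen is present. When oxygen is low, prolyl hydroxylases no longer mark the HIF alpha subunits for destruction by the VHL ubiquitin ligase. HIF1A or EPAS1 then pairs with ARNT and binds DNA at a short core motif near genes for glucose transporters, glycolytic enzymes, pH control and blood vessel growth. Many of these genes are therefore induced together where a tumor is poorly supplied with blood.

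With the quasi-likelihood F-test of edgeR and Benjamini-Hochberg adjustment, no gene of the list passed an adjusted p of 0.05, and over the whole table (19427 entries tested) 0% did. At an unadjusted p under 0.05, 2 entries were higher with DMHCA, Ldha and Eno1, where 3.53% of all genes were. Pfkfb3 alone was lower, where 4.08% of all genes were. Together they made up 6.98% of the 43 entries, close to the 7.61% of all genes. The mean was higher with DMHCA for 28 entries and lower for 15, and over all genes tested it was higher for 9328 and lower for 10099. The median log2 fold change (DMHCA minus control) was 0.24, and it was -0.03 over all genes tested. This median went from 0.68 without control 2 to -0.13 without control 3. In whole tumors, fewer cells that use a gene and less of its RNA per cell cannot be told apart.

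In normalized counts the groups did not overlap for 10 entries. Gpi1, the main Aldoa entry, Eno1, Ldha and Bnip3 were higher in both DMHCA samples than in any control (13.8% of all genes were), and Slc2a3, Pfkfb3, Pfkfb4, Slc16a1 and P4ha2 were lower in both (12.2% of all genes). On the TPM scale the split was 12 higher and 1 lower, where 20.3% and 6.97% of all genes were, and the median of all genes itself was shifted by 0.11. The 12 were the same 5 genes with Hk1, Pfkm, Aldoc, Egln1, Egln3, Adm and Vegfa, and P4ha2 alone stayed lower. Below, overlap is that of normalized counts unless TPM is named. DESeq2 with the 6 libraries taken as separate samples, the design of the study, called 846 of 21283 genes (3.98%) at an adjusted p under 0.05. Ldha and the second Aldoa entry were among them. The same tool on the 5 samples called 244 genes (1.22%), none of them in the list.

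**Figure D1:**
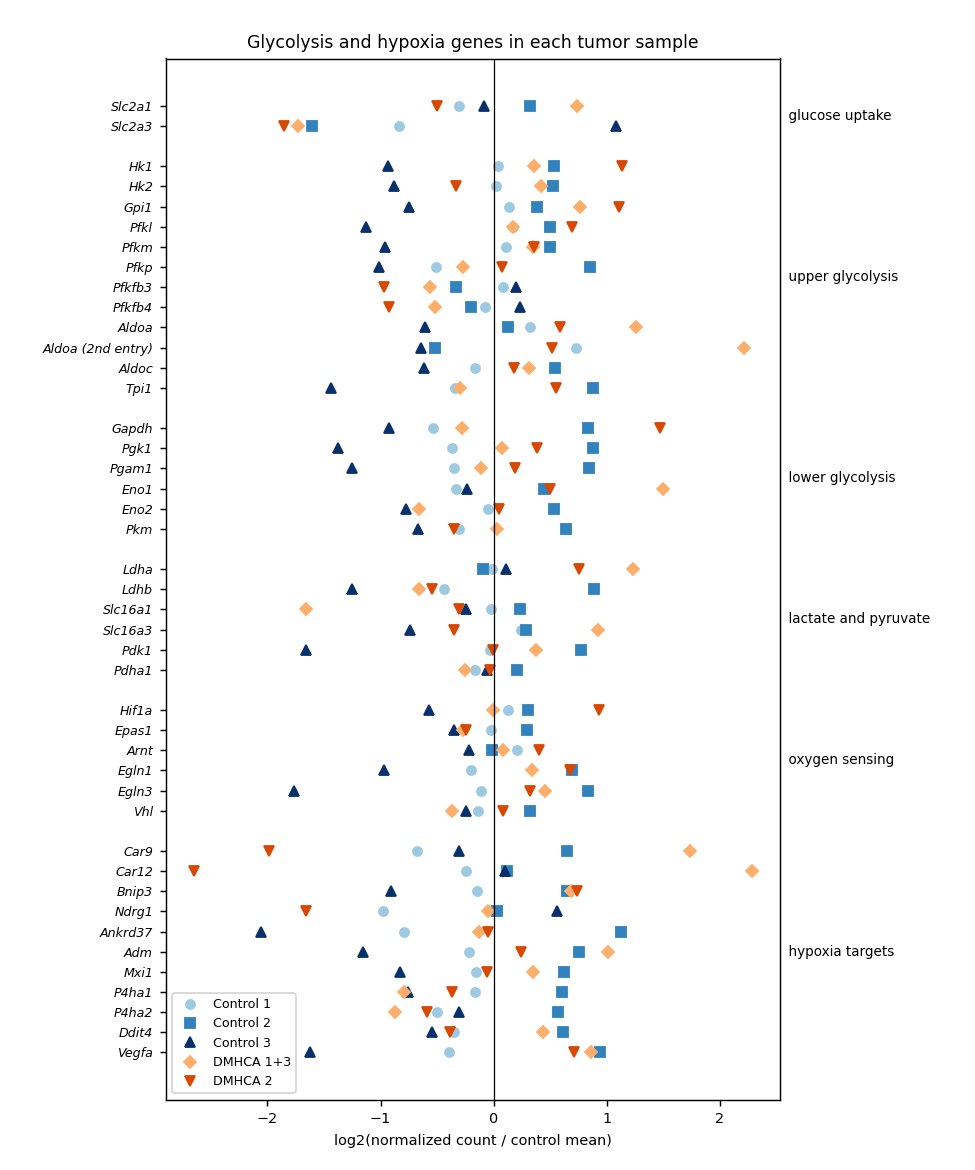
Normalized count of each of the 43 entries in each of the 5 samples, as log2 of its ratio to the mean of the 3 controls (x axis), with genes grouped by role on the y axis. Control 2 is the highest control for 35 entries and control 3 the lowest for 32.

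The controls differed widely from each other. Control 2 was the highest of the 3 controls for 35 of the 43 entries (81.4%), where it was so for 38.1% of all genes tested, and control 3 was the lowest for 32 (74.4%, against 37.2% of all genes). Over the 5 samples, control 2 was highest for 23 entries (53.5%, against 24.5% of all genes) and control 3 lowest for 29 (67.4%, against 26.0%). The ratio of the highest to the lowest control had a median of 2.57 over the list and 1.81 over all genes, and it was above 2 for 30 entries (69.8%, against 42.3% of all genes). Between both DMHCA samples the median ratio was 1.33, near the 1.40 of all genes. These shares describe 3 libraries and carry no test.

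Several entries show this span well. Vegfa, the main growth factor for new blood vessels, had 5057, 12770.5 and 2160.5 normalized counts in controls 1, 2 and 3 and 12073 and 10897 in DMHCA samples 1+3 and 2. Egln3, a prolyl hydroxylase that is itself induced by hypoxia, had 23118, 44588 and 7364 normalized counts in controls 1, 2 and 3 and 34223 and 31336 in DMHCA samples 1+3 and 2. In both genes the DMHCA samples lay close to each other, above controls 1 and 3 and below control 2. On TPM both DMHCA samples lay above control 2 as well, by little for Egln3 (291 and 292 against 289.99) and by more for Vegfa (128 and 119 against 92.7). The log2 fold change was 0.79 ± 0.67 (SE) for Vegfa (unadjusted p = 0.279, adjusted p = 0.745) and 0.39 ± 0.67 (SE) for Egln3 (unadjusted p = 0.582, adjusted p = 0.872), and without control 3 that of Egln3 was -0.049. Without 1 library that of Vegfa ran from 0.36 (without control 3) to 1.67 (without control 2, unadjusted p = 0.013), and limma on log2(TPM + 1) gave 1.36 (unadjusted p = 0.047). Ankrd37, a small HIF target, ranged over 9.09-fold among the controls, with 395, 1497 and 165 normalized counts in controls 1, 2 and 3 and 629 and 660.4 in DMHCA samples 1+3 and 2. Pdk1, the kinase that shuts pyruvate out of the citric acid cycle, ranged over 5.37-fold, with 4231, 7364 and 1370.2 normalized counts in controls 1, 2 and 3 and 5604 and 4317 in DMHCA samples 1+3 and 2. For each of these 4 genes control 3, the library with the lymphocyte and adipocyte markers, was the lowest sample. The summed TPM of tumor epithelial markers was also lowest there (3388), and the part of this composition in the low values was not tested.

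The promoters of the 3 genes with an unadjusted p under 0.05 and of Car9, a widely used hypoxia marker, are shown because the core motif bound by HIF, ACGTG or GCGTG, can be read in them. The sequences are the 250 bases before the start of the first listed RefSeq transcript (build GRCm38.p6), 5′ to 3′ on the strand of the gene, at chr7:46845554-46845803 (plus strand) for Ldha, chr4:150236458-150236707 (plus strand) for Eno1, chr2:11553930-11554179 (minus strand) for Pfkfb3 and chr4:43506776-43507025 (plus strand) for Car9. Capitals mark the core motif on either strand. Other annotated transcripts of these genes can start elsewhere.
Ldha: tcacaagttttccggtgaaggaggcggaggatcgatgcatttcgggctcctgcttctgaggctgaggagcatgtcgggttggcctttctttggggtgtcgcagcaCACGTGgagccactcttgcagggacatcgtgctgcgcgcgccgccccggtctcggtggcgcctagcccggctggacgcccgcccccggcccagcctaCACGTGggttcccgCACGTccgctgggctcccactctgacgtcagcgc
Eno1: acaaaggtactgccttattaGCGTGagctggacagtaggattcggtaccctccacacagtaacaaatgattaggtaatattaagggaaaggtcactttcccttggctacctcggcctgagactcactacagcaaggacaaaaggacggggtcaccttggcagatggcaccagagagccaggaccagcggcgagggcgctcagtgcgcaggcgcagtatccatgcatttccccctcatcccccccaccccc
Pfkfb3: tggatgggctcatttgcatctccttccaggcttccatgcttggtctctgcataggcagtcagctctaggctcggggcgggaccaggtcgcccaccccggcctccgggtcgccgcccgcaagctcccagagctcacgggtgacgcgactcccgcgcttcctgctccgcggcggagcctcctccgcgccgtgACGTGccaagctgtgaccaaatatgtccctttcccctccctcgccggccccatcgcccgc
Car9: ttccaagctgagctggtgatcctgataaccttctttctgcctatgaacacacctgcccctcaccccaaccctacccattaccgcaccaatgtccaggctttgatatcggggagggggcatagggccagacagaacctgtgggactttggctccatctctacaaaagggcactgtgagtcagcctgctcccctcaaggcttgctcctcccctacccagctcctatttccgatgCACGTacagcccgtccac
Ldha held 5 overlapping or separate matches, all of the ACGTG form, and in 2 places they overlap as the palindrome CACGTG, which is also the E-box bound by MYC and related factors. Eno1, Pfkfb3 and Car9 held 1 match each, of the GCGTG form in Eno1 and of the ACGTG form in the others. Windows were found for 39 of the 42 symbols, all but Slc2a3, Epas1 and Ndrg1. Of these 39 windows, 1 per gene, 29 (74.4%) held ACGTG or GCGTG on either strand. The share was 38.6% of the 32851 windows of all 27025 genes, which can have several each. Over every window of the listed genes it was 43 of 55 (78.2%). Part of the list was chosen as known hypoxia targets, so the share is not independent of that choice. ACGTG alone was in 46.2% of the 39 and 16.6% of all windows, and CACGTG in 12.8% and 6.02%. The windows of the list were also richer in G and C, with a median of 61.6% against 52.4%, and the shares were not matched for this. A match does not show that a factor binds there. Bnip3 also held 5 matches, and Slc16a1 and Ankrd37 held 4 each. The relation of matches to the change with DMHCA was not tested. Car12, Gpi1 and Aldoa held none in this window.

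Glucose uptake was represented by a pair of carriers, and gene positions here and below are those of GENCODE M21 on GRCm38, in which all 43 entries are protein-coding. Slc2a1 (GLUT1; ENSMUSG00000028645, chr4:119108711-119137983, plus strand) is the main glucose carrier of most tumor cells and made up 94.1% to 99.5% of the summed TPM of both genes. Its values were 5445, 8427 and 6339 normalized counts in controls 1, 2 and 3 and 11247 and 4752 in DMHCA samples 1+3 and 2. The DMHCA samples were the highest and the lowest of the 5, and the log2 fold change was 0.25 ± 0.42 (SE) (unadjusted p = 0.571, adjusted p = 0.869). That value ran from 0.12 to 0.78 without 1 library. Slc2a3 (GLUT3; ENSMUSG00000003153, chr6:122727809-122801640, minus strand), used by neurons and by many immune cells, had 165, 96.7 and 623 normalized counts in controls 1, 2 and 3 and 88.5 and 81.3 in DMHCA samples 1+3 and 2. It was the lowest of all 43 entries by mean TPM. In normalized counts both DMHCA samples were below every control, while on TPM both were above control 2 (0.435 and 0.38 against 0.37). The comparison of counts gave a log2 fold change of -1.79 ± 0.89 (SE) (unadjusted p = 0.086, adjusted p = 0.644). Without control 3 the log2 fold change was -0.63, and limma on log2(TPM + 1) gave -0.73. The summed TPM of 5 T cell markers was 143 in control 3, 1.35 to 15.7 in the other controls and 3.93 to 7.25 with DMHCA. Each of those 5 markers had counts in every sample, and the part of T cells in the Slc2a3 values was not tested.

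The enzymes from hexokinase to pyruvate kinase were among the most abundant genes of the list. The summed TPM of their 16 entries was 9065, 11731 and 4687 in controls 1, 2 and 3, and 13034 and 15209 in DMHCA samples 1+3 and 2. Both DMHCA samples lay above the controls on this per-length scale. The summed TPM of tumor epithelial markers (above) and of 6 cycling cell markers (162 to 370 in controls, 434 and 514 with DMHCA) also lay above the controls in both, and that of 5 erythroid markers lay below them in both (3664 to 5457 in controls, 3116 and 2167 with DMHCA). The part of these cells in the enzyme sum was not tested. TPM was also shifted for all genes, as given above. In normalized counts, only Gpi1, the main Aldoa entry and Eno1 of these entries were above every control in both DMHCA samples. On that scale control 2 was the highest sample for Hk2, Pfkm, Pfkp, Aldoc, Tpi1, Pgk1, Pgam1, Eno2 and Pkm.

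In upper glycolysis, Gpi1 and Aldoa stood out. Gpi1 (ENSMUSG00000036427, chr7:34201330-34230336, minus strand), which turns glucose 6-phosphate into fructose 6-phosphate, had 34593, 41011 and 18741 normalized counts in controls 1, 2 and 3 and 53277 and 67963 in DMHCA samples 1+3 and 2. It was 1.93-fold higher with DMHCA, at a log2 fold change of 0.95 ± 0.41 (SE) (unadjusted p = 0.058, adjusted p = 0.644). Aldoa (ENSMUSG00000030695, chr7:126795234-126800751, minus strand), the aldolase that splits the 6-carbon sugar, had 129703, 112974 and 67969 normalized counts in controls 1, 2 and 3 and 248196 and 155203 in DMHCA samples 1+3 and 2. The fitted difference on the log2 scale was 0.96 ± 0.44 (SE) (unadjusted p = 0.069, adjusted p = 0.644). The second Aldoa entry (ENSMUSG00000114515, chr7:126800790-126809108, minus strand) lies just upstream on the same strand and had far fewer counts, 163, 68.3 and 62.3 normalized counts in controls 1, 2 and 3 and 455 and 139.6 in DMHCA samples 1+3 and 2. It was 3.04-fold higher, at a log2 fold change of 1.60 ± 0.72 (SE) (unadjusted p = 0.063, adjusted p = 0.644), but the groups overlapped at control 1 and DMHCA 2, and without DMHCA 2 the log2 fold change was 2.25 (unadjusted p = 0.024). By DESeq2 on the 6 libraries its adjusted p was 0.047, and over all alternatives other than left-out libraries it ran from 0.047 to 0.667. Whether reads were divided between both entries was not tested.

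Pfkfb3 and Pfkfb4 make and break fructose 2,6-bisphosphate, the strongest activator of phosphofructokinase. Pfkfb3 (ENSMUSG00000026773, chr2:11471433-11554077, minus strand) had 3198, 2403 and 3476 normalized counts in controls 1, 2 and 3 and 2051 and 1543 in DMHCA samples 1+3 and 2. Both DMHCA samples were below every control in normalized counts, though on TPM DMHCA 1+3 (10.6) was above control 2 (9.17). The mean was 1797 ± 359 against 3026 ± 557 normalized counts (SD, n = 2 and 3). That is 1.68-fold lower, at a log2 fold change of -0.75 ± 0.29 (SE) (unadjusted p = 0.038, adjusted p = 0.644). The unadjusted p was 0.106 without control 1, 0.095 without control 3 and 0.227 without DMHCA 2. It was 0.057 with DESeq2 on the 5 samples, 0.051 with total counts, 0.058 without a filter on low counts and 0.296 with limma on log2(TPM + 1), which gave -0.42. Pfkfb4 (ENSMUSG00000025648, chr9:108991778-109032228, plus strand) was the lowest of the upper enzymes by TPM, with 368, 338 and 455 normalized counts in controls 1, 2 and 3 and 271 and 204 in DMHCA samples 1+3 and 2. On the log2 scale the difference was -0.70 ± 0.44 (SE) (unadjusted p = 0.158, adjusted p = 0.682), and on TPM DMHCA 1+3 lay above control 2. Control 3, which was the lowest control for most of the list, was the highest control for both of these genes.

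The other upper enzymes overlapped between groups in normalized counts. Hk1, the hexokinase of most tissues, had 27899, 39425 and 14273 normalized counts in controls 1, 2 and 3 and 34758 and 59568 in DMHCA samples 1+3 and 2. Hk2, the hexokinase induced in many tumors, had 3006, 4260.2 and 1608 normalized counts in controls 1, 2 and 3 and 3943 and 2346 in DMHCA samples 1+3 and 2, and was low in DMHCA 2 where Hk1 was highest. Of the phosphofructokinase genes, Pfkl had 41903, 52528 and 17035 normalized counts in controls 1, 2 and 3 and 41871 and 60121 in DMHCA samples 1+3 and 2. Pfkm, its muscle form, had 4640.0, 6083 and 2209.8 normalized counts in controls 1, 2 and 3 and 5489 and 5520.3 in DMHCA samples 1+3 and 2. Pfkp, its platelet form, had 15262, 39285 and 10785 normalized counts in controls 1, 2 and 3 and 18059.6 and 22963 in DMHCA samples 1+3 and 2, and control 2 was far above the rest. For these 3 genes control 3 was the lowest sample. Aldoc, the brain form of aldolase, had 66005, 107358 and 48143 normalized counts in controls 1, 2 and 3 and 91890.2 and 83418 in DMHCA samples 1+3 and 2. Its mean level over the 5 samples was 981 TPM, against 2414 TPM for Aldoa. Tpi1, which interconverts the triose phosphates, had 34454, 80381 and 16128 normalized counts in controls 1, 2 and 3 and 35622 and 64107 in DMHCA samples 1+3 and 2. The log2 fold changes of these 7 genes ran from -0.09 (Pfkp) to 0.79 (Hk1), and the smallest unadjusted p was 0.154 (Hk1).

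**Figure D2:**
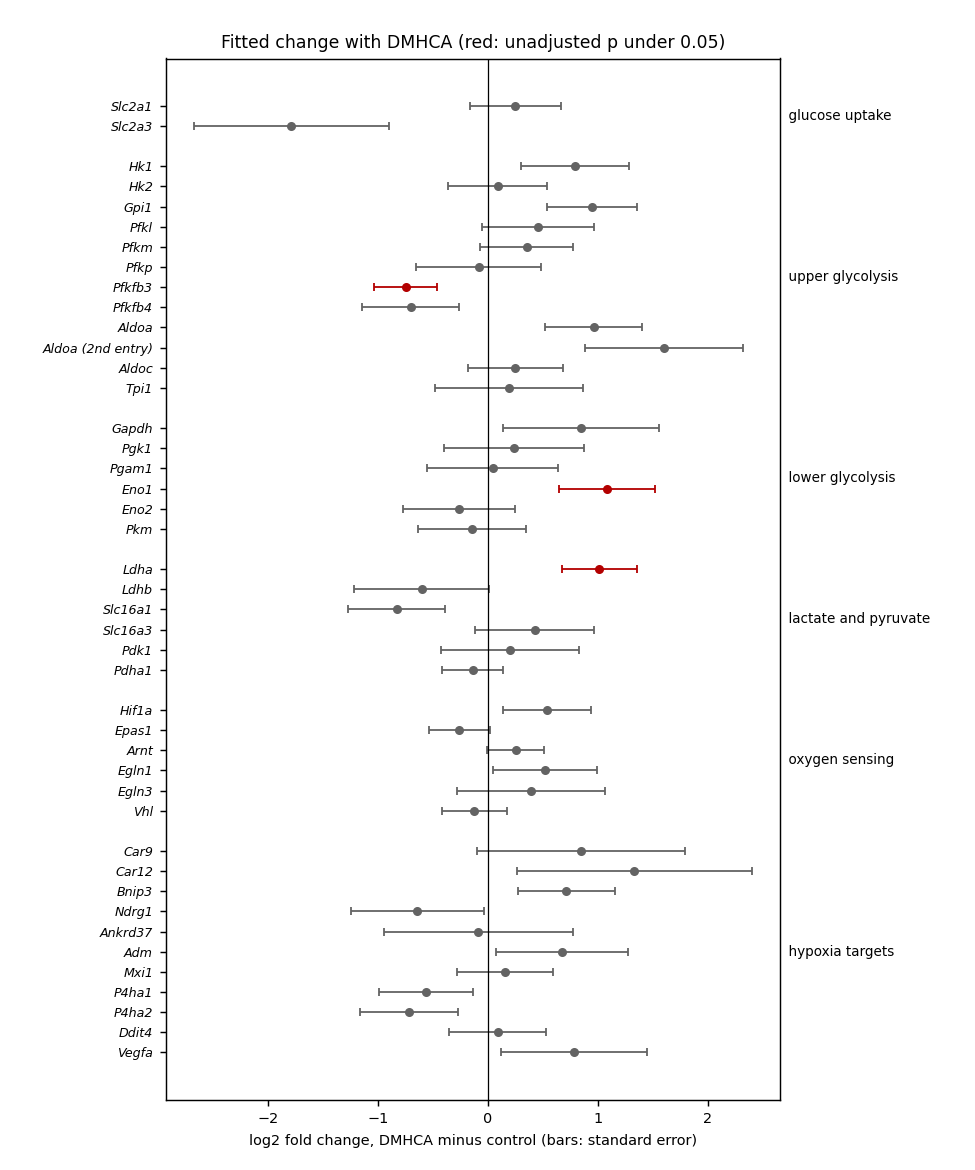
Fitted log2 fold change of each of the 43 entries (x axis, DMHCA minus control, points) with its standard error (bars), genes grouped by role; entries with an unadjusted p under 0.05 are red. Ldha and Eno1 are the red entries to the right, Pfkfb3 is the one to the left, and the bars are widest for Car12 and Car9.

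In lower glycolysis, Eno1 was the one enzyme with an unadjusted p under 0.05. Eno1 (ENSMUSG00000063524, chr4:150236721-150248879, plus strand), the main enolase of non-neuronal cells, had 23118, 39594 and 24720.2 normalized counts in controls 1, 2 and 3 and 82480.1 and 41066 in DMHCA samples 1+3 and 2. It was 2.12-fold higher with DMHCA, at a log2 fold change of 1.08 ± 0.43 (SE) (unadjusted p = 0.043, adjusted p = 0.644). DMHCA 2 was above control 2 by little, and without DMHCA 2 the log2 fold change was 1.54. Without control 1 the unadjusted p was 0.127, and without control 3 it was 0.093. Reads of Eno1 were shared with the near-identical copy Eno1b, and Eno1 held 41.7% to 47.5% of the counts of both in each library, so that its own level is uncertain. With both copies summed, 2 entries were still higher at an unadjusted p under 0.05, and the log2 fold change was 1.13. Eno2, the neuronal enolase, had 596, 894 and 361 normalized counts in controls 1, 2 and 3 and 390.2 and 637 in DMHCA samples 1+3 and 2, and made up 0.43% to 1.97% of the summed TPM of Eno1 and Eno2.

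Gapdh (ENSMUSG00000057666, chr6:125161715-125166467, minus strand), often used as a reference gene in PCR, had the highest mean TPM of the list, although Aldoa exceeded it in control 1, control 3 and DMHCA 1+3, and was far from constant. It had 52190.0, 134987 and 39997 normalized counts in controls 1, 2 and 3 and 62321 and 210483 in DMHCA samples 1+3 and 2. The highest sample exceeded the lowest by 5.26-fold, and the controls alone by 3.37-fold. The log2 fold change of 0.85 ± 0.71 (SE) (unadjusted p = 0.273, adjusted p = 0.742) came from DMHCA 2, and without that sample it was -0.24. The effective gene length that the authors' RSEM run gave for Gapdh was 923 bases in control 3, 902 in Treated 2 and 501 to 542 in the other libraries. TPM of Gapdh depends on that length, and 8 of the 43 entries had an effective length that differed by more than 1.2-fold between libraries.

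The remaining lower enzymes had the shape of the controls, with control 2 the highest of the 5 samples. Pgk1, the first enzyme of glycolysis to make ATP, had 39764, 94375 and 19749 normalized counts in controls 1, 2 and 3 and 53970.5 and 67056 in DMHCA samples 1+3 and 2. Pgam1, the mutase that follows it, had 18995, 43472 and 10144 normalized counts in controls 1, 2 and 3 and 22333 and 27547 in DMHCA samples 1+3 and 2. Pkm, pyruvate kinase, had 93831, 180630.2 and 72807 normalized counts in controls 1, 2 and 3 and 118313 and 90772 in DMHCA samples 1+3 and 2. In all 3 genes both DMHCA samples lay between the highest and the lowest control, and the log2 fold changes were 0.24, 0.04 and -0.15. The unadjusted p was 0.721 for Pgk1, 0.944 for Pgam1 and 0.773 for Pkm.

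**Figure D3:**
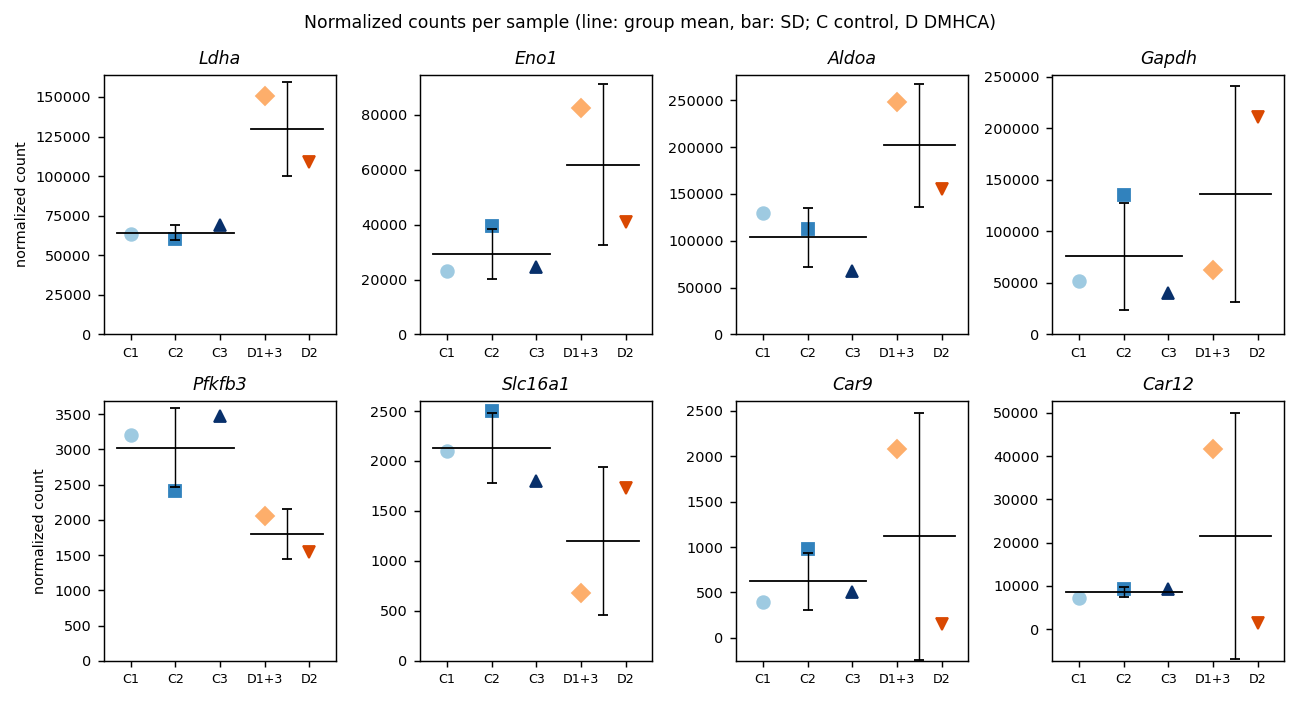
Normalized counts (y axis) of 8 genes in the 3 control samples (C1, C2, C3) and both DMHCA samples (D1+3, D2), with the group mean as a line and the SD as a bar. Ldha is at 60043 to 69247 in controls and at 150491 and 108604 in the DMHCA samples, whereas Car9 and Car12 are highest in D1+3 and lowest in D2.

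Ldha had the smallest unadjusted p of the list. Ldha (ENSMUSG00000063229, chr7:46841475-46855627, plus strand) encodes the lactate dehydrogenase subunit that favours the making of lactate from pyruvate. It had 63403, 60043 and 69247 normalized counts in controls 1, 2 and 3 and 150491 and 108604 in DMHCA samples 1+3 and 2. The controls were within 1.15-fold of each other, unlike most of the list, and control 2 was the lowest of them. The mean was 129547 ± 29619 with DMHCA and 64231 ± 4657 in controls (SD, n = 2 and 3), a 2.02-fold difference at a log2 fold change of 1.01 ± 0.34 (SE) (unadjusted p = 0.022, adjusted p = 0.644). Over the other fits on all samples the log2 fold change was 0.96 to 1.23, and over the left-out libraries it was 0.96 to 1.27. Its unadjusted p exceeded the threshold only without control 1 (0.076) among the left-out libraries. By DESeq2 on the 6 libraries the adjusted p was 0.0083, and over all alternatives other than left-out libraries it ran from 0.0083 to 0.667.

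Ldhb encodes the subunit that favours the return of lactate to pyruvate and had 15647, 39233 and 8907 normalized counts in controls 1, 2 and 3 and 13474 and 14529 in DMHCA samples 1+3 and 2. Control 2 was the highest by far, and the log2 fold change was -0.60 ± 0.62 (SE) (unadjusted p = 0.362, adjusted p = 0.779). As a share of the summed TPM of Ldha and Ldhb, Ldhb was 23.4%, 45.4% and 13.9% in controls 1, 2 and 3 and 9.77% and 14.2% in DMHCA samples 1+3 and 2. The share of DMHCA 2 was above that of control 3, so the groups overlapped. The difference of the means was -15.6 percentage points, and -6.64 without control 2.

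Lactate leaves and enters cells through monocarboxylate carriers. Slc16a1 (MCT1; ENSMUSG00000032902, chr3:104638668-104658462, plus strand) had 2097, 2499.9 and 1801 normalized counts in controls 1, 2 and 3 and 674 and 1725 in DMHCA samples 1+3 and 2. Both DMHCA samples were below the controls, DMHCA 2 by little, and on TPM DMHCA 2 (9.40) was above control 3 (8.56). The log2 fold change was -0.83 ± 0.44 (SE) (unadjusted p = 0.105, adjusted p = 0.649), and -1.62 without DMHCA 2 (unadjusted p = 0.010). Slc16a3 (MCT4), the exporter that hypoxia induces, had 614, 634 and 311 normalized counts in controls 1, 2 and 3 and 986 and 407 in DMHCA samples 1+3 and 2, with DMHCA 1+3 the highest sample. Its share of the summed TPM of both carriers was 25.2% to 40.2% in controls, 77.0% in DMHCA 1+3 and 39.5% in DMHCA 2. The carrier balance of DMHCA 1+3 thus lay outside the controls, and that of DMHCA 2 lay inside. Pdha1, the catalytic subunit of pyruvate dehydrogenase that Pdk1 inhibits, was the steadiest of this group, with 14052, 18177 and 15099.9 normalized counts in controls 1, 2 and 3 and 13237 and 15393 in DMHCA samples 1+3 and 2. The log2 fold change was -0.14 ± 0.28 (SE), and that of Pdk1 was 0.20 ± 0.62 (SE).

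**Figure D4:**
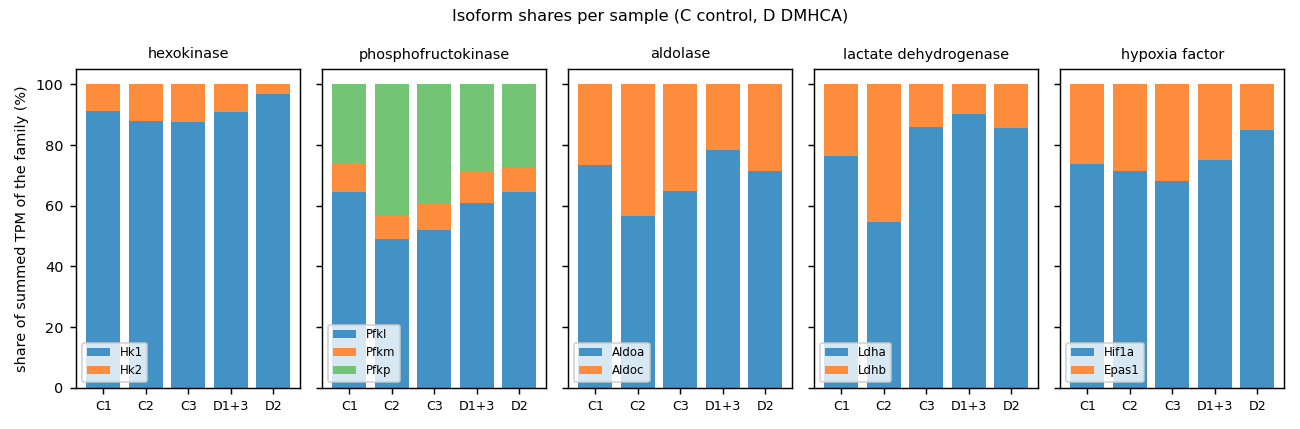
Share of each isoform gene in the summed TPM of its family (y axis, percent) in the 3 control (C1, C2, C3) and both DMHCA samples (D1+3, D2). Ldhb takes 45.4% in control 2 and 9.77% to 23.4% in the other samples, while Hk1 stays between 87.7% and 96.7% of the hexokinase pair.

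Among the other isoform families, Hk2 held 8.79% to 12.3% of the summed TPM of Hk1 and Hk2 in controls, 9.09% in DMHCA 1+3 and 3.28% in DMHCA 2. Pfkp held 26.0%, 43.3% and 39.1% of the phosphofructokinase genes in controls 1, 2 and 3, and 28.7% and 27.6% in the DMHCA samples. Aldoc held 26.6%, 43.3% and 35.1% of Aldoa and Aldoc in controls, and 21.7% and 28.5% with DMHCA. Control 2 had the largest share of Pfkp, Aldoc and Ldhb alike. In each of these 3 families the controls overlapped with the DMHCA samples at control 1 or control 3.

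In normalized counts, the groups overlapped for each of the 6 genes of oxygen sensing, whereas on TPM Egln1 and Egln3 were higher in both DMHCA samples than in any control. Hif1a, the alpha subunit that is regulated mainly through protein stability, had 9628, 10874 and 5951 normalized counts in controls 1, 2 and 3 and 8809 and 16792 in DMHCA samples 1+3 and 2. Epas1 (HIF2 alpha), abundant in endothelium, had 4265, 5329 and 3409 normalized counts in controls 1, 2 and 3 and 3582 and 3649 in DMHCA samples 1+3 and 2. The share of Hif1a in the summed TPM of both alpha subunits was 73.7%, 71.5% and 68.3% in controls 1, 2 and 3, and 74.9% and 84.8% with DMHCA, without overlap. It was the one isoform share for which the groups did not overlap, and it carries no test. Arnt, the shared partner subunit, had 4212, 3615 and 3143 normalized counts in controls 1, 2 and 3 and 3867 and 4831 in DMHCA samples 1+3 and 2. Egln1, the main oxygen sensor among the prolyl hydroxylases, had 4023, 7485 and 2369 normalized counts in controls 1, 2 and 3 and 5849 and 7391 in DMHCA samples 1+3 and 2, and control 3 was again the lowest. Vhl, the ubiquitin ligase subunit, had 2242, 3073 and 2074 normalized counts in controls 1, 2 and 3 and 1914 and 2604 in DMHCA samples 1+3 and 2. The log2 fold changes of these 5 genes lay between -0.26 (Epas1) and 0.54 (Hif1a), and the smallest unadjusted p was 0.223 (Hif1a).

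The carbonic anhydrases, cell surface enzymes that turn carbon dioxide and water into bicarbonate and a proton, separated the DMHCA samples from each other. Car12 (ENSMUSG00000032373, chr9:66713686-66766845, plus strand) had 7194, 9271 and 9157 normalized counts in controls 1, 2 and 3 and 41615 and 1359 in DMHCA samples 1+3 and 2. DMHCA 1+3 was 30.6-fold above DMHCA 2, and the controls lay between them, within 1.29-fold of each other. The log2 fold change of the means was 1.33 ± 1.07 (SE) (unadjusted p = 0.257, adjusted p = 0.737), although the DMHCA samples lay on either side of the controls. It was 2.33 without DMHCA 2 (unadjusted p = 0.00081, adjusted p = 0.959), and 0.09 and 0.04 with limma on log2(TPM + 1) and log2(TPM + 0.1). Car9 had 389, 974 and 502 normalized counts in controls 1, 2 and 3 and 2078 and 157 in DMHCA samples 1+3 and 2, and DMHCA 1+3 was 13.3-fold above DMHCA 2, again with the controls between. These were the only 2 entries of the list that differed at least 10-fold between the DMHCA samples, as 2.60% of all genes tested did. DMHCA 2 also had the lowest summed TPM of 6 skeletal muscle markers (271, against 643 to 1203 in the other samples). The summed TPM of 6 neutrophil markers was 217 in DMHCA 2, where S100a8 alone had 199, and 12.1 to 59.9 in the other samples. S100a9, Csf3r, Cxcr2 and Mmp9 were also higher in DMHCA 2 than in DMHCA 1+3, but of these 4 only Csf3r exceeded every control there on TPM (2.81 against at most 2.79), and Ly6g was at 0 in both DMHCA samples. The part of these cells in the Car9 and Car12 values was not tested.

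Of the targets with roles in survival and matrix, Bnip3 and P4ha2 had groups that did not overlap. Bnip3 (ENSMUSG00000078566, chr7:138890836-138909519, minus strand), which promotes the removal of mitochondria, had 3208, 5582 and 1894 normalized counts in controls 1, 2 and 3 and 5718 and 5937 in DMHCA samples 1+3 and 2. The DMHCA samples were above control 2 by little in normalized counts, and by more on TPM (80.7 and 92.9 against 57.5). The log2 fold change was 0.71 ± 0.44 (SE) (unadjusted p = 0.155, adjusted p = 0.680), and it ran from 0.40 to 1.19 without 1 library. P4ha2 (ENSMUSG00000018906, chr11:54100095-54131665, plus strand), a prolyl hydroxylase that collagen needs to fold, had 657, 1378 and 753 normalized counts in controls 1, 2 and 3 and 506 and 619 in DMHCA samples 1+3 and 2. Every control exceeded both DMHCA samples, at a log2 fold change of -0.72 ± 0.45 (SE) (unadjusted p = 0.151, adjusted p = 0.678). That value ran from -0.93 to -0.33 without 1 library, and from -0.79 to -0.39 over the other alternatives. Its relative P4ha1 had 4379, 7447 and 2900.1 normalized counts in controls 1, 2 and 3 and 2829 and 3809.7 in DMHCA samples 1+3 and 2. DMHCA 1+3 was the lowest sample for both P4ha genes, and control 2 the highest.

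The remaining targets overlapped in normalized counts. Adm, which encodes the vessel-dilating peptide adrenomedullin, had 469, 918 and 244 normalized counts in controls 1, 2 and 3 and 1094 and 641 in DMHCA samples 1+3 and 2. Ddit4, an inhibitor of mTORC1, had 4785, 9361 and 4182 normalized counts in controls 1, 2 and 3 and 8292 and 4686 in DMHCA samples 1+3 and 2. Mxi1, a MYC antagonist, had 4852, 8286 and 3038 normalized counts in controls 1, 2 and 3 and 6843 and 5176 in DMHCA samples 1+3 and 2. These 3 genes had control 2 or DMHCA 1+3 as their highest sample and control 3 as their lowest. Ndrg1, a stress-induced gene, went against this order, with 4879, 9819.9 and 14151 normalized counts in controls 1, 2 and 3 and 9264 and 3036 in DMHCA samples 1+3 and 2. Control 3 was its highest sample and DMHCA 2 its lowest. The log2 fold changes were 0.67 for Adm, 0.09 for Ddit4, 0.16 for Mxi1 and -0.64 for Ndrg1, with unadjusted p values of 0.302, 0.851, 0.732 and 0.326.

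Levels between genes were compared per length, as mean TPM over the 5 samples. Gapdh (3024) and Aldoa (2414) had the highest means and Slc2a3 (1.11) and Pfkfb4 (2.63) the lowest, also within each group. Of the hypoxia targets Vegfa (82.7) and Car12 (81.5) had the highest means, but in the controls alone Ddit4 (71.8) and Ndrg1 (68.0) exceeded Vegfa (55.6) and Car12 (47.3), and Car12 was at 256 TPM in DMHCA 1+3 and 9.10 in DMHCA 2. Of the sensing genes Egln3 (227) exceeded Hif1a (49.8) and Epas1 (15.3).

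Other genes of the same pathways were taken from lists made for glycolytic isoforms, mitochondrial pyruvate use, the pentose phosphate pathway, glycogen, gluconeogenesis, the HIF pathway and further hypoxia targets. Of 105 such genes in the files, 101 were tested. At an unadjusted p under 0.05, 4 were higher and 4 were lower with DMHCA, and the median log2 fold change was -0.02. Together these were 7.92% of the 101, near the 7.61% of all genes, so the genes below are given as values only. Among the higher genes, Gys1, muscle-type glycogen synthase, had 3585, 3086 and 1854 normalized counts in controls 1, 2 and 3 and 5980.1 and 5682 in DMHCA samples 1+3 and 2, at a log2 fold change of 1.04 ± 0.32 (SE) (unadjusted p = 0.016, adjusted p = 0.644). Taldo1, transaldolase of the pentose phosphate pathway, had 15457, 10586 and 13981 normalized counts in controls 1, 2 and 3 and 23256 and 20615 in DMHCA samples 1+3 and 2, at 0.72 ± 0.29 (SE). In both genes the DMHCA samples lay above every control. Egln2, the third prolyl hydroxylase of the HIF pathway, had a log2 fold change of 0.83 ± 0.31 (SE), and the hypoxia-induced Zfp395 had one of 1.02 ± 0.38 (SE).

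Among the lower genes, Pck1, the first committed enzyme of gluconeogenesis and active in fat cells, had 413, 64.9 and 1403 normalized counts in controls 1, 2 and 3 and 9.63 and 12.1 in DMHCA samples 1+3 and 2. The log2 fold change was -5.84 ± 1.44 (SE) (unadjusted p = 0.0055, adjusted p = 0.644), and DESeq2 called it at an adjusted p of 3.6e-08 on the 6 libraries and 3.6e-05 on the 5 samples. Slc2a4 (GLUT4), the insulin-dependent glucose carrier of fat and muscle, had 360.2, 449 and 790.2 normalized counts in controls 1, 2 and 3 and 240.3 and 151 in DMHCA samples 1+3 and 2, at -1.45 ± 0.54 (SE). Both genes were highest in control 3, as were all 6 adipocyte markers, each of which had counts in every sample and was lower in both DMHCA samples than in every control. The part of fat cells in these values was not tested. Bhlhe41, a hypoxia-induced transcriptional repressor, had 5907, 6886 and 10588 normalized counts in controls 1, 2 and 3 and 2818 and 853 in DMHCA samples 1+3 and 2, at -2.08 ± 0.57 (SE) (unadjusted p = 0.0092, adjusted p = 0.644). Anxa2, a membrane-binding protein, had 17769, 49151 and 25165 normalized counts in controls 1, 2 and 3 and 13337 and 11693 in DMHCA samples 1+3 and 2, at -1.29 ± 0.49 (SE). Both were lower in each DMHCA sample than in every control. DESeq2 on the 6 libraries called Pck1, Slc2a4 and Bhlhe41 of the 101, and on the 5 samples only Pck1.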

How the data were processed

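RNA from snap-frozen tissue was sequenced, 3 control and 3 DMHCA libraries. According to the submitters' processing notes, the authors used FastQC 0.11.9, cutadapt 2.9, Bowtie2 2.4.1, RSEM 1.3.1 and DESeq2 1.26, with the mouse genome mm10 (GRCm38). The authors deposited, per gene and library, RSEM expected counts (estimated, not normalized), TPM and FPKM. The use of strand is not given in the sources used here. RSEM divides reads between similar genes, such as Eno1 and its copy Eno1b.

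Expected counts were rounded. DMHCA libraries 1 and 3 were summed. Counts were compared with edgeR 4.0.16 (TMM, filterByExpr at its defaults, min.count 10 and min.total.count 15, quasi-likelihood F-test, Benjamini-Hochberg adjustment over all genes tested) in R 4.3.3. SE is the log2 fold change over the square root of F. Normalized counts are scaled to the mean effective library size. TPM was used for levels between genes and for shares, FPKM only as an alternative to it. Alternatives were DESeq2 1.42.0 (5 samples or 6 libraries), limma 3.58.1 on log2(TPM + 1) and log2(TPM + 0.1), other scalings and filters, the replicate number as a block, and each library left out. The edgeR, DESeq2 and limma fits were tested on simulated data. Coordinates are those of GENCODE M21. The members and lists were chosen with earlier results of these data known. Values per sample, fold change and p are given for entries with an unadjusted p under 0.05, an absolute log2 fold change of at least 1 or groups without overlap, and for the most abundant entry of each role. The other members, described with fewer values, were all named. From each other pathway list at most the 3 genes with the smallest p could be named.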

Additional observations from a re-analysis of the deposited data

How the results depend on the processing

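With edgeR, 0 of 19427 genes had an adjusted p under 0.05 (685 higher and 793 lower at an unadjusted p under 0.05), against 244 with DESeq2 on the 5 samples, 846 with DESeq2 on the 6 libraries and 16 without a filter on low counts. In brackets below is the share of all genes called alike, counted over genes that edgeR tested on the 5 samples. Entries higher at an unadjusted p under 0.05 numbered 2 (3.53%), against 5 (4.07%) with DESeq2 on 5 samples, 6 (7.23%) with DESeq2 on 6 libraries, 5 (7.56%) with edgeR on 6 libraries, 7 (9.10%) with the replicate number as a block, 5 (4.58%) without a filter on low counts, and 7 with limma on TPM (5.57% and 5.44% for pseudocounts of 1 and 0.1). Entries lower numbered 1 (4.08%), against 3 with DESeq2 (9.78%) and edgeR (8.03%) on the 6 libraries and with the block (8.08%), and 0 with total counts (3.83%) and with limma on TPM (1.72% and 2.12%). Leaving out 1 library gave 1 (without control 1, 3.34%, or control 3, 2.17%) to 6 (without control 2, 2.91%) higher, with 5 (2.94%) without DMHCA 2, and 0 (without control 1, 3.33%, or control 3, 3.27%) to 2 (without control 2, 6.48%) lower. Entries without overlap numbered 12 higher and 1 lower on TPM with either pseudocount. Without 1 library they numbered 5 to 20 higher, with 20 (21.1% of all genes) without control 2 and 11 (26.1%) without DMHCA 2, and 5 to 8 lower, with 8 without control 3 (16.6% of all genes) and without DMHCA 2 (25.6%). The median log2 fold change of the list was 0.20 to 0.50 over the other settings on all samples and 0.12 to 0.68 without 1 library, except -0.13 without control 3. The median of all genes itself moved to -0.20 with DESeq2, to -0.18 without the filter and to 0.11 and 0.16 on TPM.

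Of the 16 entries described in full, 285 of 287 alternative values kept their sign. Without 1 library, the log2 fold change ran from -0.049 (without control 3) to 1.10 for Egln3 and from -0.24 (without DMHCA 2) to 1.56 for Gapdh. An adjusted p under 0.05 was reached in 2 values, 1.10 for Ldha and 1.85 for the second Aldoa entry, both with DESeq2 on the 6 libraries. With Eno1 and Eno1b summed, chosen after seeing the data, the log2 fold change of Eno1 was 1.13. Without 1 library, the difference in share, in percentage points, ran from -22.4 to -6.64 for Ldhb, from -6.04 to -1.99 for Hk2, from -14.1 to -5.76 for Aldoc and from -13.0 to -4.37 for Pfkp. FPKM in place of TPM changed the rank of 2 entries. Same-numbered control and DMHCA libraries had correlations of their deviations of -0.03 to 0.32 over 3 pairs. The other pairs had -0.36 to 0.31. Because Treated 1 and Treated 3 are nearly alike, this check cannot tell whether the numbers mark pairs. With the replicate block the list's median was 0.34 and 0 genes were called. Without DMHCA 2 the DMHCA group is 1 sample, assumed to vary like the controls.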
